A study of Mus musculus with 2 samples.

Results

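Macrophages of gonadal white adipose tissue (gWAT) that carried Retnla, Lyz1, Ear2 or Mmp12 RNA were examined in single-cell RNA sequencing data of stromal vascular fraction cells. A cell was a member when it had at least 2 UMIs (unique molecular identifiers, each standing for a captured RNA molecule) of Csf1r, C1qa, C1qb and C1qc together, fewer than 10 UMIs of the fibroblast gene Dcn, none of the B cell gene Cd79a or of the nonclassical monocyte genes Treml4 and Adgre4, and at least 3 UMIs of Lyz1, Mmp12, Ear2 and Retnla together. The sum of these last 4 genes also had to be larger than the sum of Folr2, Fcna, Cbr2 and Cd209f, genes of resident tissue macrophages. The members were thus selected on measured counts of these genes, which serve below as a description and not as evidence. Cells entered when 500 or more genes were detected and mitochondrial UMIs made up no more than 10%. Of these, 410 of 3881 were members in control (10.6%, with an exact Clopper-Pearson 95% interval from 9.61% to 11.6%), and 45 of 958 in KO (4.70%, 3.45% to 6.24%). In all, 455 of 4839 kept cells were members, out of 11252 barcodes.

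The control library came from littermate mice that the label calls wildtype and that the paper gives as Pgam1 flox/flox without Cre. The KO library came from Adipo-Pgam1 KO mice, Adipoq-Cre; Pgam1 flox/flox. Both were male C57BL/6 mice of 13 weeks, and gonadal adipose tissue was digested to release the stromal vascular fraction. The Adipoq promoter drives Cre in adipocytes, so macrophages were not the cells targeted for deletion, and the number of mice behind each library is not given in the sources used here. With 1 library per genotype and cells that are not replicates, no test between genotypes was possible, and every interval below is a 95% interval that covers counting error only.

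Adipose tissue macrophages clear dying cells and lipid, present antigen and shape the growth of vessels and fat cells. Resident macrophages that carry Lyve1, Folr2 and Cd163 lie along vessels, and other macrophages arise from Ccr2-bearing blood monocytes that lose monocyte genes as they settle. Retnla encodes the secreted protein Fizz1 and is induced by interleukin 4 and interleukin 13 through the factor STAT6. Lyz1 encodes a lysozyme that cuts bacterial cell walls, Ear2 a ribonuclease of the eosinophil-associated family, and Mmp12 the macrophage elastase, a metalloproteinase that cuts matrix.

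The 4 defining genes lie on 4 chromosomes (GRCm38, GENCODE annotation). Retnla is at chr16:48842551-48844461 on the plus strand and Ear2 at chr14:44102654-44103534 on the plus strand. Mmp12 is at chr9:7344381-7369499 on the plus strand, and Lyz1 at chr10:117287797-117292868 on the minus strand, next to Lyz2 at chr10:117277331-117282321. The 250 bases before each gene's RefSeq start (GRCm38.p6) are shown because the groups of members below are set apart by which of these 4 genes a cell carried. Capitals mark AGGAAG on either strand (CTTCCT on the other strand), a core bound by ETS family factors such as PU.1, and TTC followed after 4 further bases by GAA, the spacing bound by STAT6. The 2 patterns do not overlap here and were chosen with the sequences in view.
Retnla, chr16:48842359-48842608, plus strand: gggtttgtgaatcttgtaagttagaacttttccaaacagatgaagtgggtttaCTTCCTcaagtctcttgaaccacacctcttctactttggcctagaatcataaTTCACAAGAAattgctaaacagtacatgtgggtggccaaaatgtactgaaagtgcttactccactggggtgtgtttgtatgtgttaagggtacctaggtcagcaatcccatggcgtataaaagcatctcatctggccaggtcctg
Lyz1, chr10:117292869-117293118, minus strand: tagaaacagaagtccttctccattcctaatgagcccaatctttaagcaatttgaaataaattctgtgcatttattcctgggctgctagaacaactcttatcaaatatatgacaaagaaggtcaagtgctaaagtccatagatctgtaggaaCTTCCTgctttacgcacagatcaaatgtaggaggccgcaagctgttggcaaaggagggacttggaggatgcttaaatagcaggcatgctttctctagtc
Ear2, chr14:44102404-44102653, plus strand: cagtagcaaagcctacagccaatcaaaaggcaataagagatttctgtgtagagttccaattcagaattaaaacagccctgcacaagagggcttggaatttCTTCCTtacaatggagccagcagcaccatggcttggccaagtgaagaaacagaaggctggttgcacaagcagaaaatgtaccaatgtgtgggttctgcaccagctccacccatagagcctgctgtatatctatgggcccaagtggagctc
Mmp12, chr9:7344147-7344396, plus strand: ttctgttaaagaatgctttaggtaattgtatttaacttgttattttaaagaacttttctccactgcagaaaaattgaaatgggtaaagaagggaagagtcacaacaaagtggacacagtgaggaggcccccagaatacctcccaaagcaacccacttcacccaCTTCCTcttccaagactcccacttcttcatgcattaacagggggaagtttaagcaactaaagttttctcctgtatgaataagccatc
AGGAAG occurred once in each of these 4 windows, 197 bases before the start of Retnla, 99 before that of Lyz1, 150 before that of Ear2 and 87 before that of Mmp12. It occurred in 29.5% of 32851 RefSeq promoters of the same length. The TTC and GAA pattern occurred in the Retnla window alone of the 4, 145 bases before the start, and in 5.85% of all promoters. The start of Retnla in RefSeq lies 58 bases into the GENCODE gene, and Mmp12 has 2 starts in RefSeq, of which the one nearest to the GENCODE start was used. The promoters of Lyz1 and Lyz2 were alike at 205 of 260 aligned positions (78.8%).

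Both libraries were counted from transcript 3′ ends, so reads of near-identical copies can be confused. Over the last 500 bases of the transcript, 9 of 405 stretches of 96 bases (2.22%) were shared between Lyz1 and Lyz2, 30 of 405 (7.41%) of Ear2 were shared with Ear1, Ear10 or Ear-ps2, and none of Retnla, Mmp12, Fcrls or Ccl6 was shared with another gene. The values of Ear2 therefore carry more doubt about their source than those of Retnla or Mmp12.

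The 410 control members held 4422067 UMIs, with a median of 8817 per cell (925 to 44713). The 45 KO members held 700867 UMIs, with a median of 15497 per cell (926 to 64767). KO members were thus fewer and held more UMIs per cell, which bears on the shares of members with a UMI given below. Over all kept cells the medians were closer, at 6948 and 7452.5 UMIs. KO cells were also deeper in other groups, which are described below. Median UMIs were 6139.5 in control and 11227 in KO for Folr2 macrophages. They were 7299 and 13452 for nonclassical monocytes and 4641.5 and 6584 for T cells. The gap was therefore not particular to the members. Median mitochondrial shares were 4.78% and 3.98%, and 9 barcodes occurred in both libraries, none of them a member in both. The share of members among all cells with the macrophage genes was 67.3% in control (410 of 609, 63.4% to 71.0%) and 54.2% in KO (45 of 83, 42.9% to 65.2%), intervals that overlap. These are shares of captured cells and not numbers of macrophages in the tissue.

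Pgam1, the glycolytic enzyme targeted in adipocytes, had 658 UMIs in control members and 166 in KO members, which is 149 and 237 CPM (UMIs of a gene for each 1000000 UMIs of the group). It was detected in 54.6% of control and 68.9% of KO members. On the log2 scale KO members stood 0.67 above control members (0.42 to 0.92), and 25.3% of the KO UMIs lay in 1 cell, without which the difference was 0.39. In all other kept cells it was 0.06. Pgam1 RNA was therefore present in members of both libraries.

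The genes that chose the members were unevenly spread among them. Retnla had 97434 UMIs in control and 9271 in KO members, or 22034 and 13228 CPM, and made up 89.1% and 84.0% of all UMIs of the 4 defining genes. It was detected in 96.1% of control and 77.8% of KO members, with medians of 141 and 59 UMIs per cell and highest cells of 1616 and 1309. Retnla thus carried most of the selection, and 192 control members (46.8%) and 12 KO members (26.7%) had it as their only defining gene. A UMI of Retnla was also found in 39.0% of control and 12.2% of KO T cells, taken as cells that should lack it (chosen without any UMI of the macrophage genes), at 101 and 18.1 CPM and median depths of 4641.5 and 6584 UMIs. When every cell was thinned to 2000 UMIs, which left out 23 control and 4 KO members, Retnla was found in 89.4% and 75.6% of members and in 19.6% and 4.40% of T cells. Of the T cells, 14 of 382 in control (3.66%) and 0 of 189 in KO, which allows a share of up to 1.59% at 3 cells of 189 (exact 95% upper limit 1.93%), reached 3 UMIs of the 4 genes.

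Lyz1, Ear2 and Mmp12 were found in fewer members. Lyz1 had 7569 UMIs in control and 1144 in KO members (1712 and 1632 CPM) and was detected in 37.3% and 35.6% of them, with highest cells of 650 and 323 UMIs. Ear2 had 2511 and 421 UMIs (568 and 601 CPM) in 39.0% and 60.0% of members, with highest cells of 63 and 59. Mmp12 had 1873 and 207 UMIs (424 and 295 CPM) in 7.56% of control and 15.6% of KO members, and 3 cells held 72.7% of its control and 94.2% of its KO UMIs. The name of Mmp12 therefore fits only a small minority of the members. All 4 genes together were seen in 9 control cells and 1 KO cell.

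The 2 further markers differed in how well they set members apart. Ccl6, a chemokine of myeloid cells, was found in 97.3% of the control members and in all 45 KO members, at 3354 and 3658 CPM. Fcrls, an Fc receptor-like gene of macrophages, was found in 66.3% and 64.4% of members (446 and 442 CPM) and in 70.3% and 80.0% of Folr2 macrophages. The latter met the same rule but with at least 3 UMIs of the resident genes, in sum larger than the 4 defining genes. Fcrls did not separate these kinds of cells. General macrophage genes were present, with Cd68 in 78.3% and 84.4%, Adgre1 (F4/80) in 74.9% and 73.3% and the antigen-presenting gene H2-Ab1 in 88.5% and 88.9% of members. The mannose receptor Mrc1 was found in 90.7% and 77.8%. These macrophage genes were present in both libraries, beside markers of fibroblasts and dendritic cells. At least 3 of 10 fibroblast markers were seen in 50.5% of control and 44.4% of KO members (600 and 357 CPM in sum). At least 3 of 8 type 1 dendritic cell markers were seen in 25.6% of control and 35.6% of KO members (553 and 518 CPM in sum), with Xcr1, Clec9a and Itgae at 0 in KO. At least 3 of 11 type 2 dendritic cell markers were seen in 23.4% and 24.4% (1012 and 960 CPM), with Fcer1a at 0 in both. The part of dendritic cells and of fibroblast RNA in the results was not tested.

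Near the minimum of 3 UMIs, 14 control members and 1 KO member had a sum of exactly 3, and 26 control cells and 3 KO cells were left out with a sum of 2. A further 26 control cells and 0 KO cells reached 3 UMIs and were left out because the resident genes were at least as high.

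**Figure D1:**
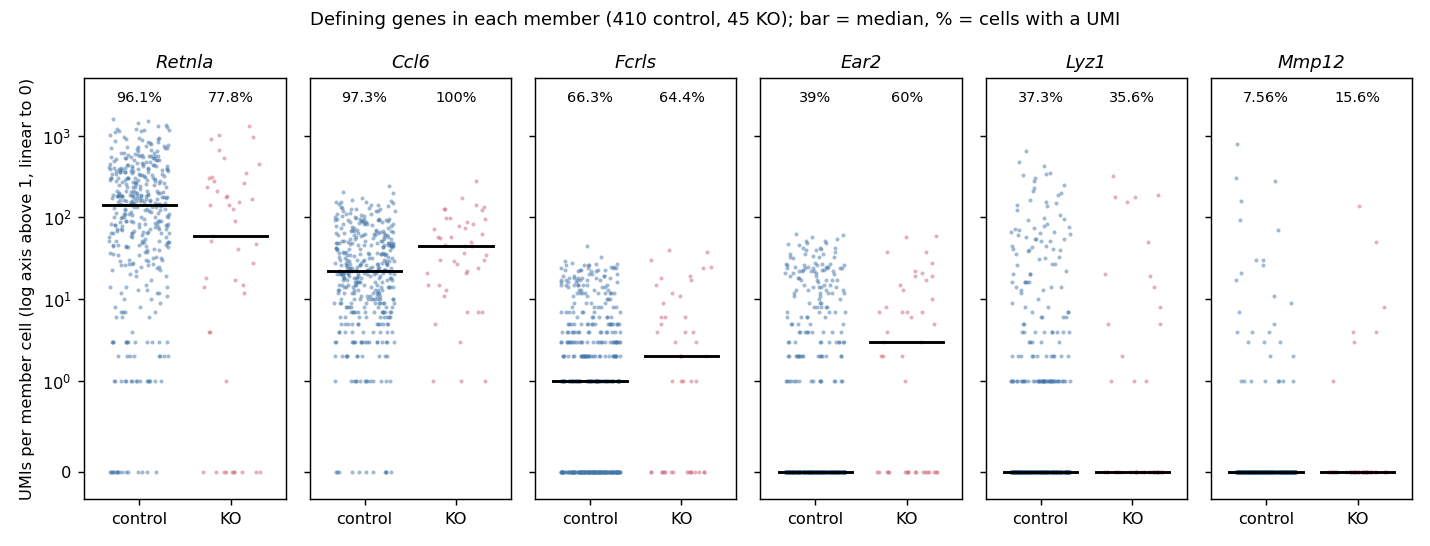
UMIs per member of the defining genes and markers, 1 point per cell (log axis above 1, linear to 0), in the control (410 cells) and KO (45 cells) libraries. Bars are medians and percentages are cells with a UMI; Retnla and Ccl6 were found in most cells, whereas the medians of Lyz1 and Mmp12 lay at 0.

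Members differed in whether they also carried the resident genes. In control, 226 of 410 members (55.1%, 50.2% to 60.0%) had at least 3 UMIs of Folr2, Fcna, Cbr2 and Cd209f, and in KO 12 of 45 (26.7%, 14.6% to 41.9%). Since the rule admits a cell with these genes whenever the 4 defining genes are higher, their Retnla counts are given too. The median was 149.5 Retnla UMIs with and 101 without the resident genes in control, and 55.5 and 128 in KO, so the order differed between the libraries. Median depth was 7060 UMIs in control members with the resident genes and 14149 in those without, and 13144.5 and 15818 in KO. Median depth was thus greater in members without the resident genes.

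Ear2 followed this division closely. Ear2 UMIs were seen in 6.64% of control members with the resident genes (15 of 226) and in 78.8% of those without (145 of 184). In KO, 0 of 12 members with the resident genes had it, which allows a share of cells with a UMI of up to 25% at 3 cells of 12 (exact 95% upper limit 26.5%), against 81.8% of those without (27 of 33). Lyz1 was found in 19.0% and 59.8% of control members with and without the resident genes, and in 25% and 39.4% of KO members. Mmp12 was found in 1.33% and 15.2% in control and in 0% and 21.2% in KO. Retnla was found in 100% and 91.3% in control and in 91.7% and 72.7% in KO. Its frequency among members with the resident genes was nearly set by the rule, which admits such cells only when the 4 defining genes, mostly Retnla, are higher.

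Genes of monocyte origin lay on the side without resident genes. Ccr2, the receptor that draws monocytes into tissue, was found in 31.9% of control members with the resident genes and 89.1% of those without, and in 50.0% and 84.8% of KO members. Fn1, fibronectin, was found in 27.0% and 88.0% in control and in 25% and 78.8% in KO. Lyve1, a hyaluronan receptor of resident macrophages that the rule did not use, was found in 81.0% and 3.26% of control members and in 66.7% and 3.03% of KO members.

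**Figure D2:**
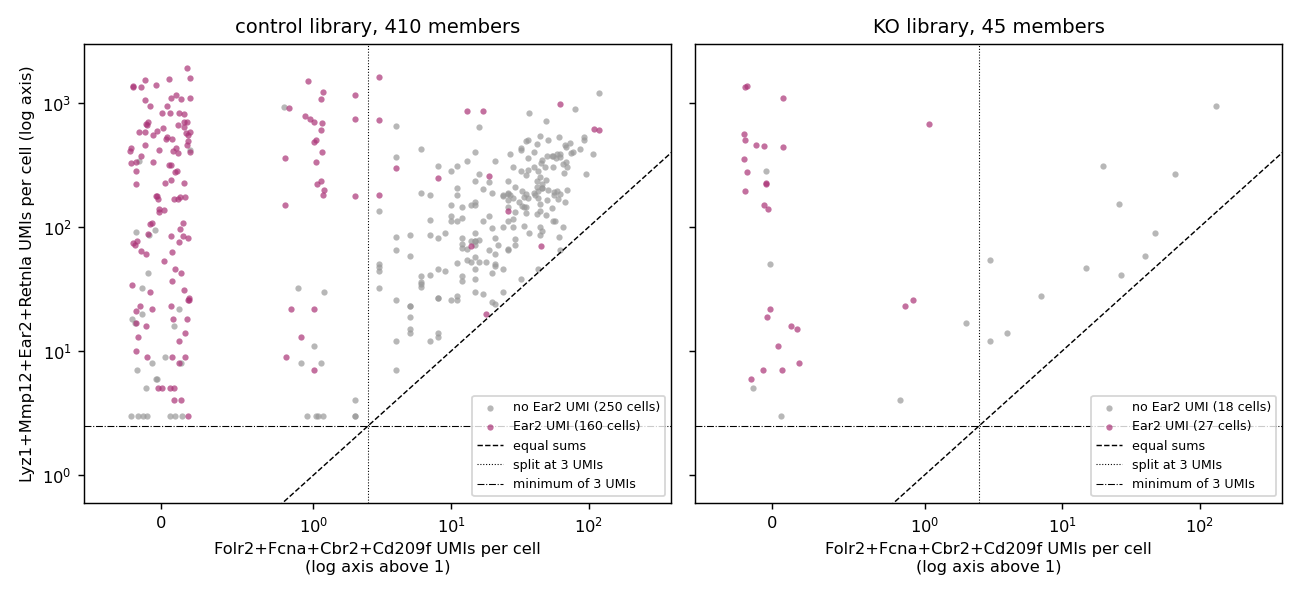
UMIs of the 4 defining genes against UMIs of the 4 resident genes in each member of the control and KO libraries (log axes above 1), with cells that had an Ear2 UMI in purple. The vertical line is the split at 3 resident UMIs and the dashed line marks equal sums; 145 of 160 control cells and all 27 KO cells with Ear2 lie left of the split.

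Across all genes, 595 of 7780 genes with at least 50 UMIs (7.65%) were at least 2-fold higher in both libraries in members with the resident genes, and 241 (3.1%) were lower. This is a description of cells sorted by 4 genes, and genes that go with them had to differ. Lyve1 was highest by this measure, at 2.62 CPM without and 1340 CPM with the resident genes in control (log2 ratio 8.99) and at 3.56 and 957 CPM in KO (7.49). Complement factor C4b had log2 ratios of 6.71 and 7.20, the chemokine Ccl8 of 5.94 and 5.89 and Gas6, a ligand that bridges dying cells to phagocytic receptors, of 5.74 and 6.94. Of the resident macrophage list all 20 measured genes were higher, among them the haemoglobin scavenger receptor Cd163 (4.87 and 5.07), the scavenger receptor Stab1 (5.38 and 6.99) and the chemokine Pf4 (4.56 and 5.90). The transcription factor Maf, known to act in resident macrophages, stood at 111 CPM without and 1695 CPM with the resident genes in control (3.93) and at 112 and 1699 CPM in KO (3.92).

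The lists followed the same line. Of 18 phagocytic and Fc receptors 9 were higher and 0 lower, of 10 complement genes 6 were higher and 1 lower, and of 12 iron handling genes 5 were higher and 0 lower. Members without the resident genes were higher in 10 of 17 monocyte genes and in 6 of 16 glycolysis genes, namely Pfkp, Gapdh, Pgam1, Pkm, Ldha and the lactate carrier Slc16a3. The median log2 ratio of the glycolysis list was -1.26 in control and -1.06 in KO, beside 0.06 and 0.19 over all genes. For Pgam1 itself the values were 72.4 CPM with and 199 CPM without the resident genes in control (-1.46, -1.75 to -1.18) and 79.2 and 276 CPM in KO (-1.80, -2.83 to -0.92). Members without the resident genes also had more Tnip3, an inhibitor of NF-kappaB signalling (-4.33 and -4.55), Cd52 (-2.65 and -3.73), the surface protease Adam8 (-2.76 and -3.35) and the transcription factor Bhlhe40 (-2.62 and -3.81). Of 18 cell cycle genes 6 were higher in the members without, in which depth was also greater.

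Cells with an Ear2 UMI, 160 in control and 27 in KO, were compared with the remaining members in the same way, and these comparisons share cells with the one above. They were deeper than cells without (medians of 14993 and 7014.5 UMIs in control, 19747 and 10772.5 in KO), and 234 of 7766 genes (3.01%) were higher and 594 (7.65%) lower in both libraries. All 20 measured resident macrophage genes were lower, with medians of -3.66 and -4.04. Tnip3 rose from 31.8 CPM without to 398 CPM with Ear2 in control (3.65) and from 5.67 to 541 CPM in KO (4.99). Also higher were Aldh1a2, which makes retinoic acid (2.89 and 3.97), the surface glycoproteins Cd24a (3.15 and 2.95) and Sdc1 (3.15 and 2.68), the adhesion receptor Cd226 (2.61 and 2.60) and Bhlhe40 (2.65 and 4.25). Of 11 measured MHC class II genes, H2-DMb1 (1.38 and 1.30) and H2-DMb2 (4.47 and 2.51), which help load peptides, were higher and 0 were lower. Fn1 stood at 302 and 4976 CPM in control without and with Ear2 (4.04) and at 2240 and 4564 CPM in KO (1.03). In KO, 1 cell without Ear2 held 294 Fn1 UMIs, the cell rich in Prg4 that is described below. The smaller KO ratio therefore rests in part on that cell.

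Lyz1 marked many of the same cells. Of 153 control members with Lyz1, 104 (68.0%) also had Ear2, against 39.0% of all control members, and of 16 KO members 12 (75.0%) did, against 60.0%. Depth was again greater with the gene, at medians of 13801 and 7388 UMIs in control. Only 47 of 7717 genes (0.609%) were higher and 153 (1.98%) lower in both libraries. The coagulation factor gene F5 was the highest, at 0.909 and 13.5 CPM in control (3.31) and 2.45 and 123 CPM in KO (4.06), followed by Prr5l, a binding partner of the mTORC2 complex (2.34 and 3.02). Fcrls was higher too (1.28 and 1.40), as was the dipeptidase Dpep2 (1.75 and 1.48). Of 20 resident macrophage genes 15 were lower, with Ccl8 at 260 and 21.1 CPM in control (-3.62) and at 108 and 0 CPM in KO. The related gene Lyz2 stood at 5010 CPM without and 10176 CPM with Lyz1 in control (1.02) and at 9368 and 17003 CPM in KO (0.86); the 2.22% of shared stretches given above apply to this pair.

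Members with Mmp12 were few, 31 in control and 7 in KO, and carried more RNA of genes of lipid-associated macrophages, cells known from obese adipose tissue that take up lipid and carry Trem2, Cd9 and Gpnmb. Of 22 measured genes of that list 12 were higher in both libraries and 0 lower, with medians of 2.03 and 1.44, beside 153 of 7893 genes higher (1.94%) and 91 lower (1.15%) overall. Gpnmb, a lysosomal glycoprotein, stood at 10.5 CPM without and 329 CPM with Mmp12 in control (4.97), and at 0 and 93 UMIs in KO. With the 0 set to 3 UMIs it was 204-fold higher in KO members with Mmp12 (7.67, lower limit 7.34). Ctsk, a collagen-cutting cathepsin, stood at 2.26 and 129 CPM in control (5.84). The lipid receptor Trem2 had ratios of 2.74 and 1.98, the tetraspanin Cd9 of 2.52 and 2.42, the fatty acid binding protein Fabp5 of 3.81 and 2.93 and the lectin Lgals3 of 2.26 and 1.78. Lipoprotein lipase, Lpl, had 2.14 in control and 0.47 in KO and did not count as higher in both. Summed UMIs of Trem2, Cd9, Gpnmb and Spp1 ranged from 0 to 110 over the 31 control cells (median 6), with 10 cells at 0 and 69.8% of the UMIs in 5 cells, and from 0 to 97 over the 7 KO cells. These ratios therefore describe the pooled cells, a few of which held most of the UMIs.

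Further genes of these cells were the cystine carrier Slc7a11 (4.70 and 6.52), the vessel growth factor Vegfa (3.78 and 4.08) and the interleukin 1 antagonist Il1rn (3.14 and 6.65). On the lower side stood the lectins Clec10a (-3.48 and -3.50), Mrc1 (-2.70 and -2.58) and Mgl2 (-2.19 in control, 358 and 0 UMIs in KO), with 14 of 20 resident macrophage genes lower. Retnla was found in 25 of 31 control members with Mmp12 (80.6%) and in 2 of 7 KO members (28.6%). With 7 KO cells, 1 cell can set any of these KO values.

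Members without any Retnla UMI numbered 16 in control and 10 in KO. Against them, members with Retnla were higher in 127 of 7839 genes (1.62%) and lower in 123 (1.57%). Higher were Fcrls (2.65 and 4.52) and Aldh1a2 (3.06 and 3.38). Lower were 3 of 14 genes of alternative activation, the transglutaminase Tgm2 (-2.48 and -4.56), Arg1, which breaks down arginine (739 and 27.2 CPM in control, -4.76; 47 and 0 UMIs in KO), and the chitinase-like gene Chil3 (106 and 4.73 CPM in control, -4.48; 44 and 1 UMIs in KO). The level of Arg1 was thus higher in the few members without Retnla, although both are known as genes of alternative activation. Of 22 lipid-associated macrophage genes 11 were lower and 0 higher in members with Retnla. By the rule, members without Retnla had to hold at least 3 UMIs of Lyz1, Mmp12 and Ear2 together. Retnla was found in 80.6% and 28.6% of members with Mmp12, against 96.1% and 77.8% of all members. This comparison therefore shares cells with the one by Mmp12 and is a description.

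**Figure D3:**
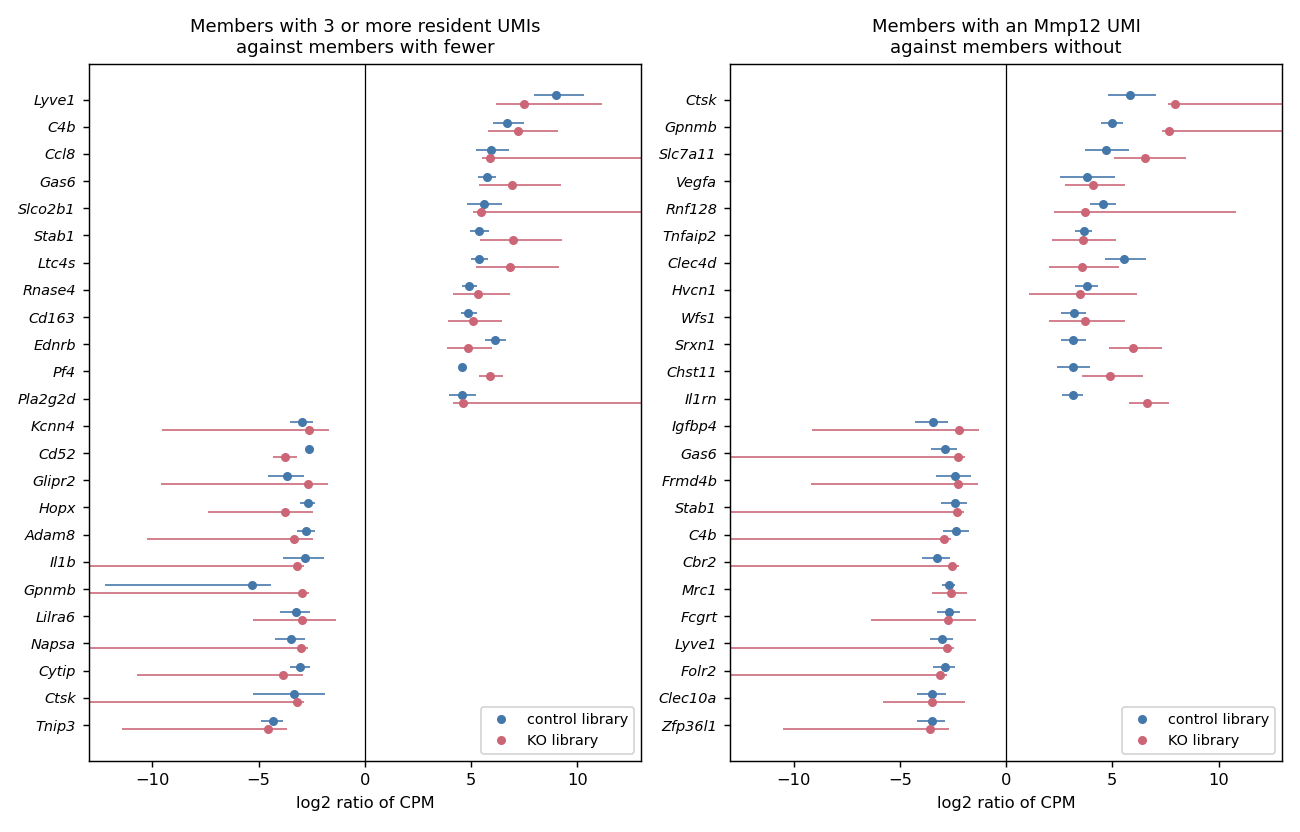
Log2 ratios of CPM within each library, for members with against without 3 resident UMIs (left) and with against without an Mmp12 UMI (right), for the 12 highest and 12 lowest genes shown, by the ratio nearer 0. Lines are exact conditional binomial intervals of counting error, those that reach the edge run beyond the axis, and counts under 3 were set to 3; Lyve1 leads the left panel at 8.99 in control and Ctsk the right panel at 5.84.

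The share of UMIs from MHC class II genes, which present antigen to T cells, ran from 0% to 8.02% over control members (median 2.37%) and from 0% to 10.95% over KO members (median 3.34%). The 136 control and 15 KO cells with the highest shares were set against equal numbers with the lowest shares, and the genes that made the share were left out. In both libraries 52 of 6436 genes (0.808%) were higher and 215 (3.34%) lower. Ciita, the master regulator of these genes, stood at 9.35 and 110 CPM in control (3.55) and at 4.75 and 127 CPM in KO (3.15). The fractalkine receptor Cx3cr1 was higher as well (2.27 and 3.16), with Il1b (1.80 and 4.25), Clec4b1 (2.94 and 1.95) and Itgax (1.04 and 1.52).

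At the low end of the MHC class II share lay Mmp12 (1301 CPM in the low and 57.7 CPM in the high cells in control, -4.49; 66 and 0 UMIs in KO), Gpnmb (-4.82 in control; 92 and 0 UMIs in KO), Arg1 (-3.72 in control; 47 and 0 UMIs in KO) and Lyve1 (-3.45 and -5.25). Of 21 lipid-associated macrophage genes 11 were lower and 1 higher, and of 20 resident macrophage genes 10 were lower and 0 higher. In pooled counts, genes of members with Mmp12 and of members with resident genes thus both lay at the low end. For Mmp12 this rested on few cells. The control cells with 780, 304 and 278 Mmp12 UMIs had MHC class II shares of 0.06%, 0.01% and 0.66%. Other control cells with Mmp12 had high shares, such as 4.36% in a cell with 26 UMIs. The KO cell with 137 of the 207 Mmp12 UMIs had a share of 2.34%, above the low cells, which ended at 2.31%. The defining genes did not keep 1 direction in this split: Ear2 had 3.23 in control and 0.84 in KO, Lyz1 1.74 and -4.44, and Retnla 0.47 and -0.69.

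Against Folr2 macrophages, of which there were 74 in control and 5 in KO, the defining genes were higher by the rule itself, and 94 of 8178 genes were higher in both libraries (1.15%) and 319 lower (3.9%). These figures are a description, since the same genes chose the cells, and the median over all genes was -0.07 in control and -0.90 in KO. With TMM factors 165 genes were higher and 189 lower, so the excess of lower genes depended on the scaling. Fn1 stood at 198 CPM in Folr2 macrophages and 2914 CPM in members in control (3.88) and at 0 and 2789 UMIs in KO. Ccr2 had ratios of 2.21 and 4.23, Cd52 of 2.31 and 2.27, and Hopx, a cofactor of transcription, of 2.18 in control, with 0 and 164 UMIs in KO. Of 17 monocyte genes 7 were higher and 0 lower. Of 21 chemokines and their receptors 7 were lower in members and 2 higher: Ccl12 (-4.39 and -8.88), Ccl3 (-3.36 and -2.92) and Ccl4 (-3.22 and -2.35) are monocyte attractants among the lower ones. The iron exporter Slc40a1 was lower too (-2.58 and -2.56). The 5 KO Folr2 macrophages had a median of 11227 UMIs, so the KO values rest on few cells.

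Nonclassical monocytes (148 in control, 26 in KO), which patrol vessels, are kept out by the rule. They met the same limits for the macrophage genes, Dcn and Cd79a, and had at least 2 UMIs of Treml4 and Adgre4 together. Cells with 1 such UMI were in neither group. Against these monocytes 119 of 8536 genes were higher (1.39%) and 214 lower (2.51%). This too is a description, since those 2 genes chose the cells. Mmp12 stood at 15.2 CPM in these monocytes and 424 CPM in members in control (4.80) and at 0 and 207 UMIs in KO. Lyz1 was higher by 1.41 and 1.32. Ear2 was not, at 735 CPM in monocytes and 568 CPM in members in control (-0.37) and at 725 and 601 CPM in KO (-0.27). Retnla had a ratio of 1.67 in control and 0.10 in KO, where the monocytes held 12355 CPM, so that Ear2 and, in KO, Retnla did not set members apart from monocytes. Of 22 lipid-associated macrophage genes 7 were higher, and of 16 interferon-stimulated genes 6 were lower, among them Irf7 (-2.11 and -2.72). The monocyte genes Ace (-5.93 in control; 105 and 0 UMIs in KO), Plac8 (-6.30 and -5.00) and Fcgr4 (-4.27 and -4.77) were near 0 in members.

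Between the libraries, 157 of 8199 genes were at least 2-fold higher in KO members (1.91%) and 737 at least 2-fold lower (8.99%), with a median log2 ratio of KO to control of -0.12 over all measured genes. None of the 4 defining genes reached 2-fold. Retnla was lower at -0.74 (-0.77 to -0.71) and Mmp12 at -0.52, whereas Lyz1 (-0.07, -0.16 to 0.02) and Ear2 (0.08, -0.07 to 0.23) had intervals that include 0. Ccl6 had 0.13 and Fcrls -0.01. Lyz2 stood at 7606 CPM in control and 12557 CPM in KO members (0.72, 0.69 to 0.76).

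Most of the largest rises came from single KO cells. Prg4, which encodes the lubricating protein lubricin, went from 12 to 178 UMIs (log2 ratio 6.55), all 178 of them in 1 cell. That cell had no Retnla UMI and 14 of Lyz1, with 8 UMIs of Timd4, 3 of Gata6 and 10 of Icam2, genes of large peritoneal macrophages. Thbs1 (thrombospondin, 26 and 338 UMIs, 6.36), the macrophage growth factor Csf1 (18 and 126, 5.46), the chemokines Ccl3 (19 and 50, 4.05) and Ccl7 (121 and 203, 3.40) and the cytokine Tnf (60 and 84, 3.14) were all richest in another KO cell of 28937 UMIs, which also held 137 of the 207 Mmp12 UMIs of KO. Without that cell the ratio of Csf1 was 0.13 and that of Ccl7 -1.20, whereas Thbs1 kept 4.92, Ccl3 2.64 and Tnf 1.67. However, Thbs1 was found in only 6 KO cells, and the cell with Prg4 held 75 of its 338 KO UMIs. Ctsk (65 and 112 UMIs, 3.44) lay for 89.3% in a further cell with 50 Mmp12 and 64 Gpnmb UMIs, and Slpi, a protease inhibitor (16 and 41, 4.02), for 90.2% in 1 cell. Without those cells their ratios were 0.23 and 0.69. Some of these genes were also higher in KO in nonclassical monocytes, of which KO had 26. There Prg4 had 0 and 146 UMIs, Thbs1 9 and 160 (6.01), Ccl7 24 and 64 (3.27) and Slpi 22 and 15 (1.31). Ccl3 had 1.64 with an interval that includes 0, and Csf1 (8 and 1 UMIs) and Tnf (28 and 6, -0.36) did not rise.

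Il6 and Hspa1a, the remaining large rises, were less bound to 1 cell. Il6, an inflammatory cytokine, went from 38 to 85 UMIs (3.82, 3.25 to 4.41) in 12 control and 7 KO cells. It kept 3.16 without its richest KO cell and was also higher in the other kept cells of KO (2.55). Still, the KO cells richest in Il6, Hspa1a and Prg4 held 36, 20 and 11 of its KO UMIs. In control, 1 cell held 50% of its 38 UMIs. Hspa1a, an inducible heat shock chaperone, went from 65 UMIs in 36 control cells to 108 UMIs in 22 KO cells (3.39, 2.93 to 3.86) and kept 2.90, beside 0.72 in all other kept cells. In nonclassical monocytes alone Hspa1a stood at 2.54 (1.55 to 3.57), while Il6 had 15 UMIs in control and 1 in KO. Over all rises, 59 of 157 genes stayed at least 2-fold higher without the KO cell richest in them. Of the 737 falls, 622 stayed at least 2-fold lower without the control cell richest in them. The cell left out was 1 of 45 for rises and 1 of 410 for falls, so these counts cannot be compared.

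Among genes that rose, stayed past 2-fold without their richest cell and were found in at least 10 KO members, some are named here after their values were seen. Fkbp5, a target of glucocorticoids, went from 100 UMIs in 76 control cells to 71 in 27 KO cells (2.16, 1.70 to 2.62), beside 0.23 in all other kept cells. Hspa1b, a close relative of Hspa1a, went from 85 to 106 UMIs (2.98), beside 0.39. Whether reads of this pair could be confused was not measured. Cebpb, a transcription factor of inflammatory and alternatively activated macrophages, went from 1314 UMIs in 272 control cells to 627 in 41 KO cells (1.59, 1.45 to 1.73), beside 0.73. The neutrophil attractant Cxcl2 had 2.57 in 13 KO cells, beside 1.68 in all other kept cells. Il1b, which encodes interleukin 1 beta, had 2.43 in 14 KO cells, 52.3% of its UMIs in 1 of them (1.42 without it), beside 0.90. The nuclear receptor Nr4a1 had 1.44, beside 0.43.

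Falls were counted over more cells, since control had 410 members and KO 45. Timp3, an inhibitor of metalloproteinases, went from 409 UMIs in 76 control cells to 3 in KO (-4.43, -6.72 to -2.88). Timp3 was also lower in all other kept cells (-1.05), and in T cells it went from 413 to 28 UMIs (-3.20). Cd209g (535 and 5 UMIs, -4.08) and Cd209f (1276 and 20, -3.34), lectins of resident macrophages, fell as well, Cd209f being a gene of the rule, and in all other kept cells they stood at -2.10 and -2.07. Nr1d1, a repressor of the circadian clock, went from 176 UMIs in 108 cells to 2 (-3.22), beside -2.47 in the other cells. Hbb-bt, a haemoglobin chain, went from 3704 to 45 UMIs (-3.71) and fell in the other cells too (-1.45), T cells among them (-2.48). The chemokine Ccl17 (426 and 7 UMIs, -3.27) had 96.7% of its control UMIs in 1 cell, without which its ratio was 1.65.

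Some of the largest falls are known from other cell types. Rgs5 (330 and 1 UMIs, -4.12) marks pericytes, Acta2 (407 and 4, -4.01) smooth muscle, Ccl5 (351 and 2, -4.21) T and NK cells, and Epas1 (182 and 3, -3.27) endothelium. Beside them, the 8 endothelial markers summed to 110 CPM in control members, none of them at 0, and to 28.5 CPM in KO, with Kdr, Flt1 and Tie1 at 0. The 7 NK cell markers summed to 240 UMIs in control, with 10 of 410 members holding at least 3 of them, and all 7 were at 0 in KO. The 8 mesothelial markers had 180 and 2 UMIs, and the 10 fibroblast markers 600 and 357 CPM, with 5 of 8 measured ones lower in KO (median -1.45). T cell markers were level, at 116 and 118 CPM. With members that held such markers left out, Timp3 stood at -1.72, Rgs5 at -1.61, Epas1 at -1.58, Acta2 at -2.23 and Ccl5 at -2.89. Removing the highest doublet scores took out 19 of 410 control and 0 of 45 KO members. In T cells Rgs5 (621 and 25 UMIs, -3.96) and Epas1 (185 and 22, -2.39) were lower in KO too. Acta2 (-0.19) and Ccl5 (0.03) were level there. The falls of Rgs5 and Epas1 were thus not particular to the members, and their cause was not tested.

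**Figure D4:**
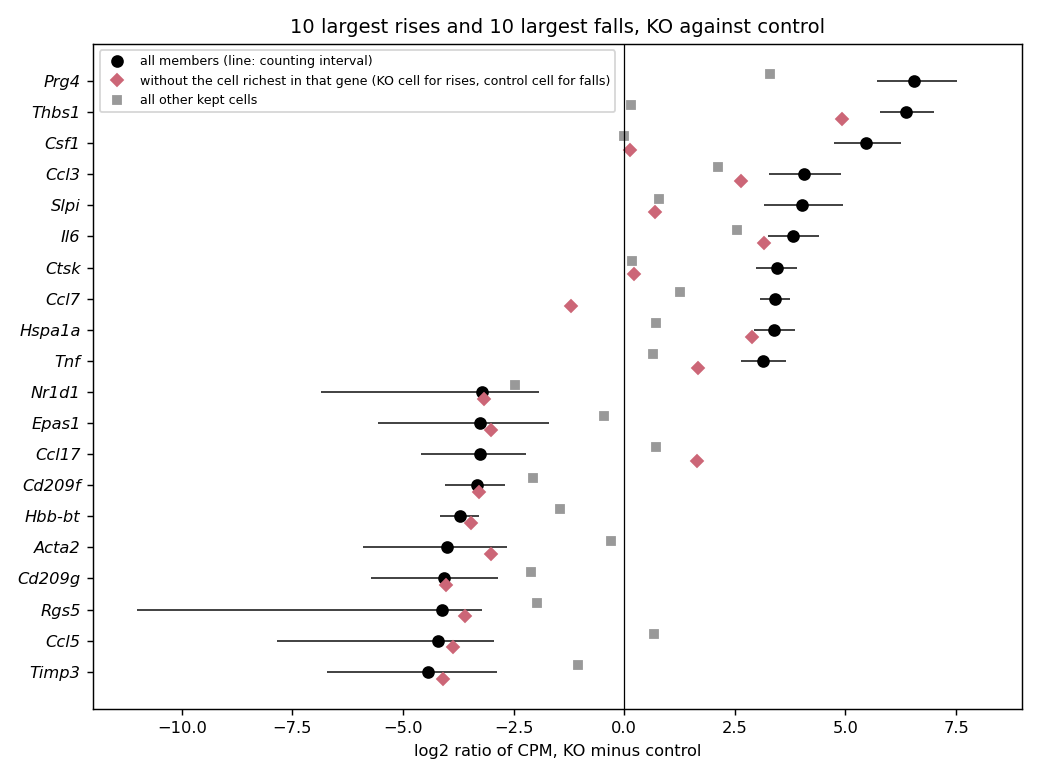
Log2 ratios of CPM, KO minus control, for the 10 largest rises and 10 largest falls in members (black, with exact conditional binomial intervals), without the cell richest in each gene (red) and in all other kept cells (grey). A red point is left out for Prg4, which had no KO UMI left. Csf1, Slpi, Ctsk and Ccl7 lose their rise without 1 KO cell, while Hspa1a, Il6 and Thbs1 keep theirs. Thbs1 was found in only 6 KO cells.

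Leaving aside markers of other cell types, resident macrophage genes formed the list with the lowest median between the libraries. Of 20 measured genes 14 were at least 2-fold lower in KO and 0 higher, with a median of -1.17. Lyve1 went from 531 CPM in control to 193 in KO (-1.46, -1.73 to -1.21), Cd163 from 280 to 92.7 (-1.59), the growth factor Igf1 from 317 to 101 (-1.65) and Pf4 from 1488 to 653 (-1.19). The share of members with at least 3 resident UMIs was itself lower in KO (26.7% against 55.1%). Among the 184 control and 33 KO members under 3 resident UMIs, 4 of 11 measured genes of the list were lower, with a median of -0.46, beside 113 of 6615 genes higher (1.71%) and 334 lower (5.05%). Among the 226 control and 12 KO members with at least 3, 3 of 19 were lower, with a median of -0.19, beside 130 of 5320 genes higher (2.44%) and 410 lower (7.71%). Both subsets were set by resident genes of the rule, so their resident levels are partly fixed by the split. The part of this smaller share of resident cells in the falls was not tested.

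Other lists lower in KO were shorter of calls. Of 12 iron handling genes 4 were lower and 0 higher (median -0.40): Cd163, the iron exporter Slc40a1 (-1.76), the transferrin receptor Tfrc (412 and 12 UMIs, -2.44) and Cp (-1.41). Of 12 clock genes 6 were lower and 3 higher, with a median of -1.16. The repressors and output genes Nr1d1, Nr1d2 (-1.75), Dbp (-2.17), Tef (-1.78), Cry2 (-1.76) and Per3 (61 and 0 UMIs, 3.22-fold lower with the 0 set to 3) fell, whereas Per1 (1.20), Nfil3 (1.42) and Bhlhe40 (1.06) rose. Among members under 3 resident UMIs 6 clock genes could be measured, 2 of them lower and 1 higher, with a median of 0.17. Among members with at least 3 resident UMIs 4 of 8 were lower and 1 higher, with a median of -0.77. Times of tissue collection are not given in the sources used here.

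Inflammatory genes went in both directions. Of 16 cytokines and growth factors 7 were higher (Il1b, Il1rn, Tnf, Il6, Vegfa, Csf1 and Spp1) and 3 lower (Igf1, Pdgfc and Gas6), with a median of 0.09. Of 22 chemokines and receptors 6 were higher and 7 lower (median 0.18). For Il1rn, 93.3% of 179 KO UMIs lay in 1 cell, and for Ccl2, 87.9% of 331, so that the counts of these lists rest in part on single KO cells. The receptor Cxcr4 (1.36, 0.87 to 1.83) was found in 18 KO members and kept 1.04 without its richest cell.

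Glycolysis genes had a median of 0.53, with Eno1 (154 and 311 CPM, 1.01) the 1 gene of 16 past 2-fold and 0 lower; among members under 3 resident UMIs the median was 0.26 and 0 of 15 were past it. MHC class II genes had a median of 0.36, with H2-Ab1 at 4581 and 5985 CPM (0.39, 0.34 to 0.43) and Cd74 at 10932 and 14699 CPM (0.43), while both were slightly lower in all other kept cells (-0.15 and -0.11). Oxidative phosphorylation genes had 0 of 18 past 2-fold (median 0.05). Lipid-associated macrophage genes had 3 of 22 higher (Cd9, Gpnmb and Spp1) and 1 lower (Fabp4), and Gpnmb stood at 0.00 without its richest KO cell. Of 18 cell cycle genes 5 were higher, but 94.3% of Mki67, 86.7% of Cdk1 and 88.5% of Birc5 UMIs in KO lay in 1 cell each. Heat shock genes had 2 of 12 higher, Hspa1a and Hspa1b, and 1 lower (Hspb1).

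Within the members under 3 resident UMIs the heat shock pair was again high, with ratios of 4.85 for Hspa1a and 4.02 for Hspa1b. Tnf had 3.30 and Il6 3.46 there, and Retnla -0.54. The pooled levels of these genes thus differed between the libraries also where few resident macrophage genes were found. The KO cells richest in Tnf (55 of 84 UMIs), Il6 (36 of 85) and Hspa1a (35 of 108) all had 0 resident UMIs. They therefore lie in this group, and single cells set part of these ratios.

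**Figure D5:**
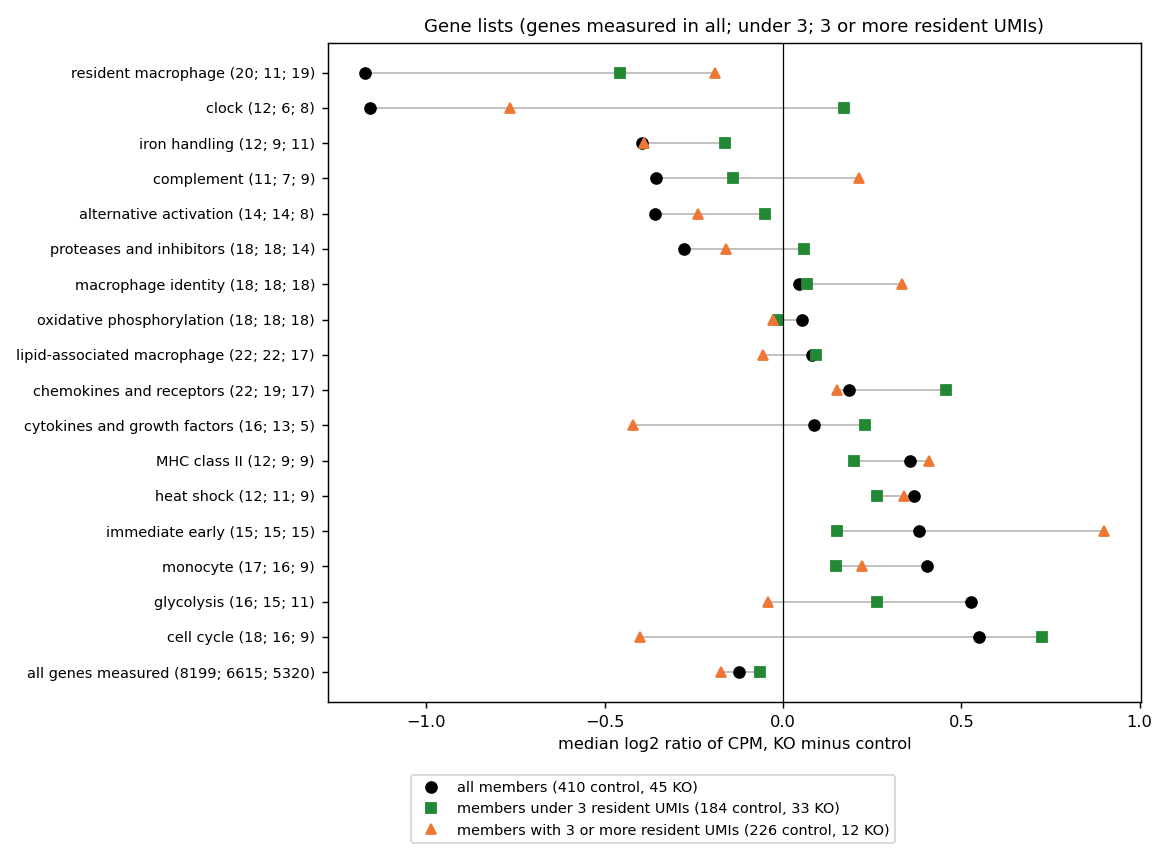
Median log2 ratio of CPM, KO minus control, of each gene list over all members (black), members under 3 resident UMIs (green) and members with at least 3 (orange), with the number of genes measured in each case in brackets. Resident macrophage and clock genes lie lowest over all members, at -1.17 and -1.16, and stand at -0.46 and 0.17 in the members under 3 resident UMIs and at -0.19 and -0.77 in those with at least 3.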

How the data were processed

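Single-cell RNA sequencing counted UMIs per gene in 1 control and 1 KO library. The authors made the deposited gene counts, unnormalized, and the submitters' processing notes name Cell Ranger 3.0.1, Seurat 3.1.5, R 4.0.1 and mm10. Counts were read with scanpy 1.11.5, numpy 2.4.6, scipy 1.17.1 and pandas 2.3.3 in Python 3.11.15, with edgeR 4.0.16 in R 4.3.3 only for TMM factors as an alternative scaling. UMIs were summed over cells of a group and given as CPM with exact Poisson intervals, and ratios with exact conditional binomial intervals. Genes with at least 50 UMIs were compared, counts under 3 were set to 3, and a call needed a 2-fold difference, in both libraries where cells were split within a library. No fold was given where both counts were at or under 3.

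Genes were named by rule: Pgam1, the defining genes and markers, the 10 largest rises and 10 largest falls of KO against control (mitochondrial, ribosomal, X-inactivation and Y-linked genes left out), the 15 highest and 15 lowest genes of each within-library comparison by the ratio nearer 0, and list genes with at least 50 UMIs. Of 461 genes in 36 lists, 458 were matched by symbol, 2 by identifier and 1 was not analysed. The members and lists were chosen with earlier results of these data known. Doublets were scored with Scrublet at an assumed rate of 0.8% per 1000 barcodes and removed only as an alternative. Depth was equalized by thinning to 2000 UMIs as an alternative. Scripts were tested on simulated data. Some genes that met the naming rule are not reported here.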

Additional observations from a re-analysis of the deposited data

How the results depend on the processing

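Members made up 10.6% of control and 4.70% of KO kept cells. They made up 9.005% and 3.40% when cells needed 200 genes and at most 20% mitochondrial UMIs, 11.8% and 7.44% at 1000 genes and 5% (where 43.5% of control members had 3 resident UMIs), and 9.54% and 3.27% when cells were thinned to 2000 UMIs. Against 157 genes higher and 737 lower in KO, the counts were 59 and 163 after thinning, 304 and 1179 with equal weight per cell, and 87 and 330 at a minimum of 100 UMIs per gene. At a minimum of 20 UMIs 279 were higher, and at 1000 genes and 5% mitochondrial UMIs 460 were lower. The share of calls that were higher was 17.6%, 24.3% with TMM factors (198 higher, 616 lower) and 25.4% with median-of-ratios factors (207 and 608), and these factors moved the median of all genes from -0.12 to -0.02 and -0.01. Against Folr2 macrophages, 94 genes were higher and 319 lower. The counts were 11 and 16 after thinning, 165 and 189 with TMM factors, 169 and 190 with median-of-ratios factors and 60 and 212 with equal weight per cell, and 59 were higher at a minimum of 6 UMIs of the defining genes.

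3 alternatives were chosen after seeing the data. Without members that had 3 resident UMIs, members were 4.74% of control and 3.44% of KO kept cells, 334 genes were lower in KO, 176 were higher and 586 lower than in Folr2 macrophages, and the median of the clock list turned to 0.17. Without members that held markers of other lineages, members were 8.84% of control kept cells. Without the KO member with most Thbs1, Ccl7 turned to -1.20. Pgam1 turned to -0.42 after thinning, on 4 KO UMIs. In each case the cause was not tested. Some genes had no value under an alternative because both counts were at or under 3 or the floor alone set the direction. No paired analysis was possible because each genotype had 1 library, and for the same reason no replicate could be left out. With 45 KO members, single cells set many KO values. Median UMIs per cell were higher in KO, both in members and, by less, over all kept cells.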
